A study of Mus musculus with 28 samples.

Results

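The genes described here are 37 mouse genes of extracellular WNT signalling, chosen by name with earlier results of these data known. They are 19 Wnt ligands, 10 Frizzled receptors, 4 secreted Frizzled-related proteins (Sfrp) and 4 Dickkopf proteins (Dkk), out of 21887 protein-coding genes. Each was examined over its annotated body plus 50 kb on either side, in 2 sets of CUT&RUN regions from E14 cells, a line of mouse embryonic stem cells. These windows held 44 of the 5446 regions of histone variant H3.3 and 148 of the 57857 regions of H3K27ac, the acetylation of histone H3 at lysine 27 found at active promoters and enhancers. In CUT&RUN an antibody in isolated nuclei directs a nuclease to its target, and the released DNA is sequenced.

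The study compared 4 mutant genotypes of the H3.3 genes H3f3a and H3f3b with wildtype cells; in the names, A marks the substituted allele (the series title names a lysine-to-alanine change in H3.3). The mutants were H3f3a_AA_H3f3b_WTA, with libraries from 2 clones, and H3f3a_AA_H3f3b_WTWT, H3f3a_WTWT_H3f3b_AA and H3f3a_WTA_H3f3b_AA, with 1 library per target each, against wildtype with 2 libraries per target. Targets were H3.3, H3K27ac, H3K122ac and a control without primary antibody. The region sets are consensus positions without a value per library, so mutant and wildtype cells are not compared here, depth is unknown, and no count below has a replicate. The labels describe medium with LIF and a version that adds inhibitors of GSK3, a kinase whose inhibition mimics WNT signalling, and of MEK. They do not say which libraries came from which medium.

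WNT proteins are lipid-modified, secreted ligands that bind Frizzled receptors together with a co-receptor. In the canonical branch this stabilises beta-catenin, which acts with TCF/LEF factors in the nucleus. Sfrp proteins carry a Frizzled-like domain and bind WNTs, while Dkk proteins such as DKK1 act on the LRP5/6 co-receptors. In mouse embryonic stem cells WNT signalling supports self-renewal, and in the embryo the ligands pattern the primitive streak, brain, limbs and kidney. Many such developmental genes are known in these cells as silent genes with CpG-rich promoters.

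The cell type was checked first on marker genes. All 12 stem cell markers, Pou5f1, Sox2 and Nanog among them, had an H3K27ac region within 1 kb of a gene end. Of 12 markers of other lineages 0 did, and of all protein-coding genes 38.8%. An H3.3 region lay there at 8 of the 12 lineage markers (66.7%, against 16% of all protein-coding genes), the widest at Hand1 (5620 bp). It lay there also at 4 of the 12 stem cell markers (33.3%).

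Start sites lying inside an H3.3 region are shown first, since they place the variant on the promoter itself. RefSeq promoter sequences (GRCm38.p6, whose chromosomes have the mm10 coordinates) were matched for 25 of the 37 genes, with 28 start sites. An H3.3 region covered 7 of the 28 start sites (25%), against 7.19% of 21263 start sites of protein-coding genes, and these 7 are printed as the 250 bases before the start, 5′ to 3′, with CpG dinucleotides in capitals. The genes are Wnt1 (chr15:98789607-98789856, plus strand), Wnt3 (chr11:103773925-103774174, plus), Wnt6 (chr1:74771642-74771891, plus), Wnt10b (chr15:98778151-98778400, minus), the upstream start of Wnt11 (chr7:98834862-98835111, plus), Fzd4 (chr7:89404116-89404365, plus) and Fzd7 (chr1:59481897-59482146, plus).
Wnt1: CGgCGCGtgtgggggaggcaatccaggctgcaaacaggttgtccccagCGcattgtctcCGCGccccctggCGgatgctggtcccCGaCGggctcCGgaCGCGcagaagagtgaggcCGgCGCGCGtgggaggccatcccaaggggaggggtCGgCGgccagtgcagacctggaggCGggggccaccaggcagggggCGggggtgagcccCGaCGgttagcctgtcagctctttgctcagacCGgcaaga
Wnt3: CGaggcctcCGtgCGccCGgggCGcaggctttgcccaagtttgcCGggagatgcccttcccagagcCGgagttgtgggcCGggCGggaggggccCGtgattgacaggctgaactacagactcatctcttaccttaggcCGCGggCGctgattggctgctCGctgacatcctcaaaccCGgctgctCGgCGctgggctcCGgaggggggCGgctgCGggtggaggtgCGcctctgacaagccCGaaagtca
Wnt6: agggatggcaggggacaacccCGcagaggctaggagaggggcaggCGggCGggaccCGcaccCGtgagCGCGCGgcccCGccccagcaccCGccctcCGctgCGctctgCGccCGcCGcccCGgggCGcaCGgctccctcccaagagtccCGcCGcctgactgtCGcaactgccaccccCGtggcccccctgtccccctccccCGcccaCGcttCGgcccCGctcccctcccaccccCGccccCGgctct
Wnt10b: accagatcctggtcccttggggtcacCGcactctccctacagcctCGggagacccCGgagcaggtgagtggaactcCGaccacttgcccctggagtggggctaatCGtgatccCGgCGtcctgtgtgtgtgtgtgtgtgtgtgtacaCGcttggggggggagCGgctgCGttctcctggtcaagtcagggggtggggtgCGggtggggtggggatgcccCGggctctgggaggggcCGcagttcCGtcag
Wnt11: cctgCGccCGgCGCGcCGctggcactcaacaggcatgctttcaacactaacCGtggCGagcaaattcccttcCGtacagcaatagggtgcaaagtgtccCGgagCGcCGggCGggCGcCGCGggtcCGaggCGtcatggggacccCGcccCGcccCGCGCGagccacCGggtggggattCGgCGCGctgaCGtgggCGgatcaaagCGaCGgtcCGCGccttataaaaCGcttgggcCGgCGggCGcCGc
Fzd4: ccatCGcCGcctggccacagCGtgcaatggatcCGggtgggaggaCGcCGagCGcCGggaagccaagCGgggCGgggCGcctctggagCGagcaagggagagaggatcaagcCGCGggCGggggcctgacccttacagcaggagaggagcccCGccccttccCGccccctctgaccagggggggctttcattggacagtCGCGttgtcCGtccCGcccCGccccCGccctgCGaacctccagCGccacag
Fzd7: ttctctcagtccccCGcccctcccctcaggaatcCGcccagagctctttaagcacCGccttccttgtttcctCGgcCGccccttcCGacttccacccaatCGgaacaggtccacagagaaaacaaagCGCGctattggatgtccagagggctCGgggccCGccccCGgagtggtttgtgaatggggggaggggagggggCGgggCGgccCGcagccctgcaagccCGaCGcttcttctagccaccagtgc
CpG numbered 37 in the 250 bases at Wnt11, 28 at Wnt6, 25 at Fzd4, 23 at Wnt1, 22 at Wnt3, 17 at Fzd7 and 14 at Wnt10b. The Wnt10b stretch was thus the poorest in CpG of the 7, although the H3.3 region there was the widest at an end of any of the 37 genes. Over 300 bases (250 before and 50 after the start), the 28 start sites had a median GC content of 68.7% and a median of 26.5 CpG, against 56.3% and 13 over all start sites.

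H3.3 was at the ends of many of these genes, and H3K27ac at few. A gene end here means any base up to 1 kb from an annotated end of the gene, on either side. An H3.3 region touched a gene end at 18 of the 37 genes (48.6%, exact 95% interval 31.9 to 65.6%), against 16% of all protein-coding genes. H3K27ac was at 4 of the 37 (10.8%, 3.03 to 25.4%), against 38.8% of all protein-coding genes. Both sets met at the ends of 1 gene, Fzd7 (2.70% of the 37, against 10.7%), H3.3 stood alone at 17 (45.9%, against 5.31%), H3K27ac alone at 3 (8.11%, against 28.2%), and 16 genes had neither (43.2%, against 55.8%). Among all protein-coding genes with H3.3 at an end, 66.7% also had H3K27ac at an end, and of the 18 described here 1 did (5.56%). Intervals cover counting over genes alone. Wnt3 and Wnt9b share a region, so the 18 genes are not independent. Counted over gene bodies instead, H3.3 was in 18 of the 37 genes (48.6%, against 16.1%) and H3K27ac in 10 (27%, against 48.4%).

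**Figure D1:**
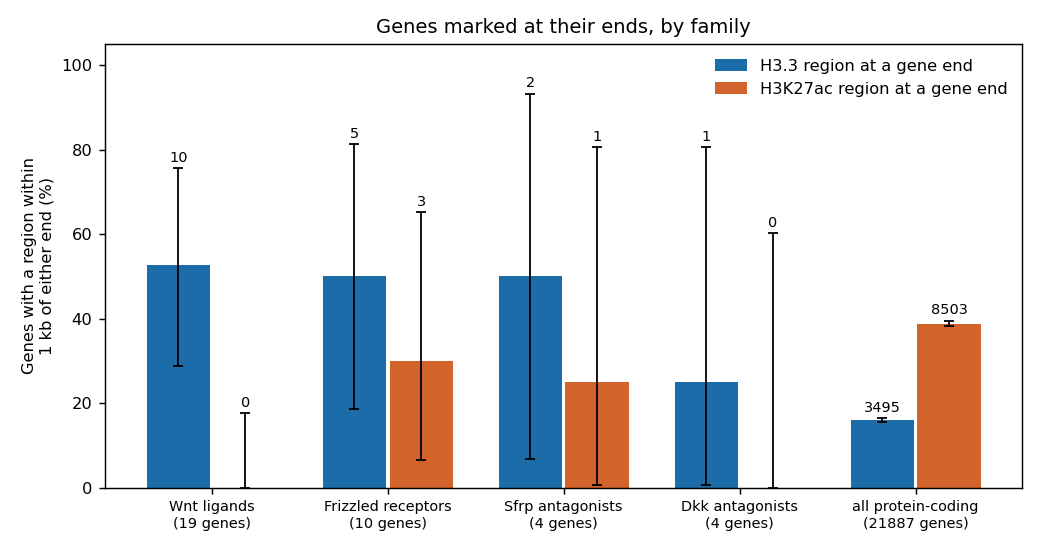
Share of genes (%) with an H3.3 (blue) or H3K27ac (orange) region within 1 kb of either end, for the 4 families and for all protein-coding genes; bars carry exact 95% intervals over genes and the number of genes above them. H3.3 is at 10 of 19 Wnt ligands and H3K27ac at 0, while over all protein-coding genes H3K27ac is the more frequent of the pair.

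Among the ligands, H3.3 was at the ends of 10 of 19 genes (52.6%, 28.9 to 75.6%, against 16% of all protein-coding genes). H3K27ac was at 0 of the 19 (0 to 17.6%, against 38.8%). The 10 were Wnt1, Wnt3, Wnt3a, Wnt6, Wnt7a, Wnt7b, Wnt9b, Wnt10a, Wnt10b and Wnt11. Wnt5a, a ligand of the non-canonical branch that drives limb and body outgrowth, belongs beside them: its regions of 1548 bp (chr14:28506195-28507742) and 2957 bp (chr14:28508830-28511786) lay inside the gene, more than 1 kb from either end. The other 8 ligands had no H3.3 region in the gene or within 1 kb of it: Wnt2 and Wnt2b, which act together in lung formation, Wnt4, a ligand of kidney and female gonad, Wnt5b, Wnt8a, Wnt8b, Wnt9a and Wnt16. Acetylation inside ligand genes was short, with 603 bp in Wnt4, 781 and 256 bp in Wnt7b and 344 bp in Wnt3a. It measured 343 and 219 bp in Wnt5b and 222 bp in Wnt9a. Both Wnt5b regions also touched an end of Fbxl14, a protein-coding gene lying inside the annotated Wnt5b gene.

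The H3.3 regions in or at the ligand genes ranged from 231 to 4183 bp. At Wnt10b the region measured 4183 bp (chr15:98776690-98780872) and ran from 2722 bp before the start to 1460 bp after it. The region at Wnt1, the ligand of midbrain and neural crest development, was 3757 bp (chr15:98789566-98793322) and ran from 291 bp before the start to 3465 bp after it, along a gene of 3974 bp. Both covered their start sites, and neither touched H3K27ac.

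At Wnt6 a region of 3180 bp (chr1:74770430-74773609) covered the start, which lies inside the annotated gene and so outside the end window, where a second region of 1014 bp (chr1:74783583-74784596) accounts for the count. Wnt11, a non-canonical ligand of kidney and heart development, had 2398 bp (chr7:98834522-98836919) over its upstream start and a separate 813 bp just before its downstream start. Wnt7b, a ligand of lung and kidney, had regions of 2197, 703 and 545 bp, of which the 545 bp region touched a gene end. None of these regions touched H3K27ac.

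At Wnt3, Wnt3a, Wnt7a and Wnt9b the regions near the start were under 500 bp. At Wnt3, which is needed to form the primitive streak, 271 bp (chr11:103774012-103774282) ran from 163 bp before to 107 bp after the start. Wnt3a, a ligand of the tail bud, had 258 bp (chr11:59289701-59289958) lying 793 to 1050 bp after the start. Wnt7a, which gives the limb its dorsal side, had 438 bp (chr6:91410133-91410570) lying 783 to 1220 bp after its start. Wnt9b, a ligand of kidney tubule formation, had 231 bp lying 318 to 548 bp before its listed start, and it counts as having H3.3 at a gene end through the 271 bp region at the start of Wnt3, close to which its annotation ends.

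Over the gene and 1 kb on either side, H3.3 was at 20 of the 37 genes (54.1%, against 19.6%) and H3K27ac at 10 (27%, against 50.8%). An H3K27ac region wider than 2 kb lay in this stretch at 2 of the 37, Fzd5 and Sfrp4 (5.41%, against 21.6% of all protein-coding genes). An H3.3 region wider than 2 kb lay there at 7 of the 37 (18.9%), against 1.15% of all protein-coding genes. All 7 with such an H3.3 region were ligands: Wnt10b, Wnt1, Wnt6, Wnt5a, Wnt10a, Wnt11 and Wnt7b, from 4183 bp down to 2197 bp. Taking for each gene its widest H3.3 region at an end, the median was 993.5 bp over the 18 genes, against 486 bp over the 3495 protein-coding genes with such a region. It exceeded 1 kb at 9 of the 18 (50%, against 17.7%) and 2 kb at 4 (22.2%, against 6.15%). Such width was not particular to these genes. The same median was 3756 bp over the 8 markers of other lineages with H3.3 at an end, and 1454 bp over the 4 such stem cell markers.

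**Figure D2:**
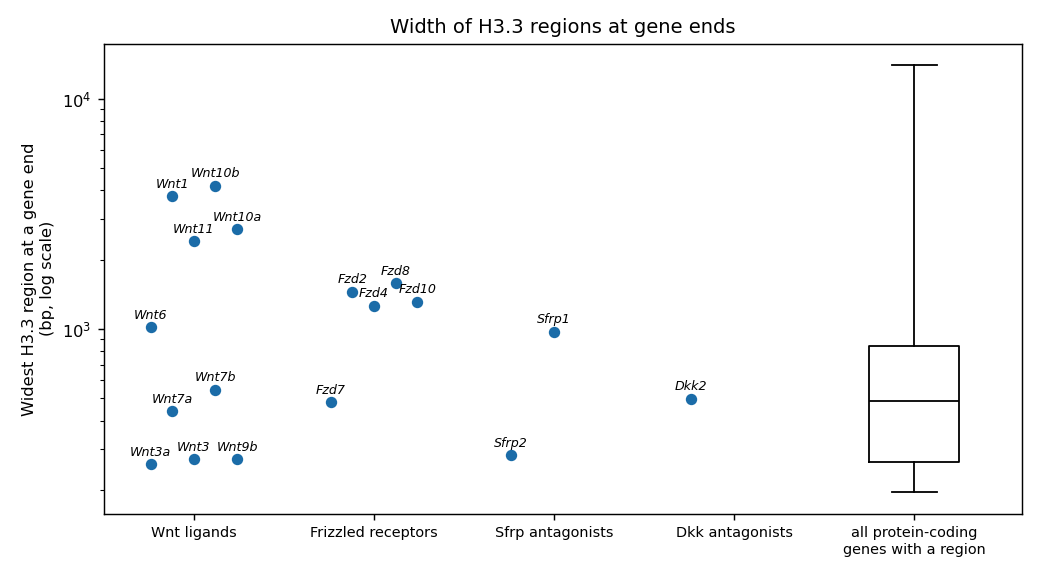
Width in bp (log scale) of the widest region of H3.3 touching an end, 1 point per gene with such a region; the box for all 3495 protein-coding genes with one shows median and quartiles, and its whiskers the full range. Wnt10b, Wnt1, Wnt10a and Wnt11 lie above 2 kb, Fzd2, Fzd4, Fzd8 and Fzd10 between 1259 and 1576 bp, and Wnt3, Wnt3a, Wnt9b and Sfrp2 below 300 bp.

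Ligand genes that lie next to each other differed from pair to pair. Wnt10b and Wnt1 stand back to back on chromosome 15, 11650 bp apart, and H3.3 covered 7940 bp, or 34.3%, of the 23119 bp from the outer end of one to that of the other. Wnt6 and Wnt10a, 6696 bp apart on chromosome 1, held 5 H3.3 regions with 7547 bp between their outer ends, 15.1% of 49835 bp. At Wnt10a, a ligand of tooth and hair development, regions of 1780 bp (chr1:74802351-74804130) and 2702 bp (chr1:74804630-74807331) lay side by side at its annotated end facing away from Wnt6.

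The pairs on chromosome 11 carried less H3.3 than the pairs of Wnt10b and Wnt1 and of Wnt6 and Wnt10a. Wnt9b and Wnt3, whose annotations overlap, held 5 short regions of 231 to 398 bp, 1.61% of their span. Wnt3a and Wnt9a, 16097 bp apart, held the 258 bp region at Wnt3a alone, 0.302% of their span. Over the merged windows of all protein-coding genes H3.3 covered 0.231%. Those windows include 50 kb flanks, which the spans of the pairs leave out. H3K27ac covered 0 bp within the spans of Wnt6 and Wnt10a, of Wnt9b and Wnt3 and of Wnt10b and Wnt1. Within that of Wnt3a and Wnt9a it covered 566 bp in 2 regions. Over the merged windows of all protein-coding genes H3K27ac covered 4.41%, and 26.8% of the single windows held none.

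**Figure D3:**
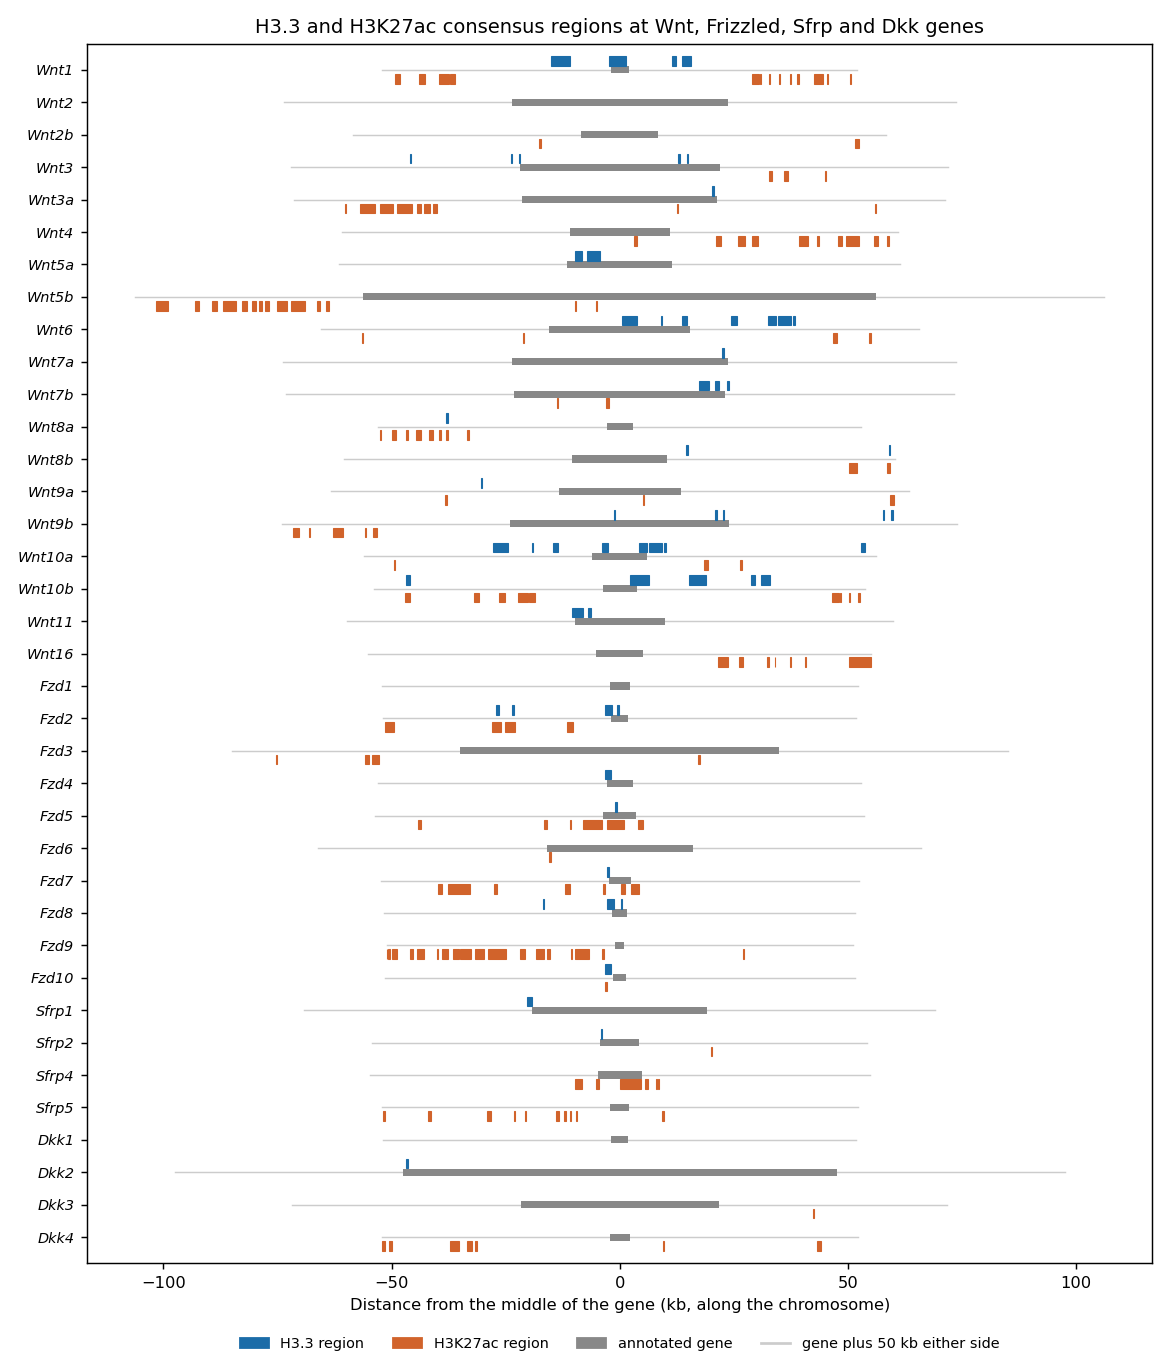
H3.3 (blue, above) and H3K27ac (orange, below) regions around each of the 37 genes, placed by distance in kb from the middle of the gene (grey bar) along the chromosome; thin lines mark the gene plus 50 kb either side, and outlines keep the shortest regions visible. H3.3 sits on or beside the gene at Wnt1, Wnt6, Wnt10a and Wnt10b, while H3K27ac at these 4 lies in the flanks.

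Among the receptors, H3.3 was at the ends of 5 of 10 Frizzled genes (50%, 18.7 to 81.3%, against 16% of all protein-coding genes). H3K27ac was at 3 of the 10 (30%, 6.67 to 65.2%), an interval that includes the 38.8% of all protein-coding genes. Fzd8, whose WNT-binding domain is known in structural detail, had 1576 bp of H3.3, Fzd2 1452 bp (chr11:102603130-102604581), Fzd10 1314 bp (chr5:128599408-128600721) and Fzd4 1259 bp (chr7:89403970-89405228). The Fzd4 region, at the gene for the Norrin receptor of retinal vessels, covered the start from 396 bp before to 862 bp after it and also touched an end of the neighbouring gene Tmem135. At Fzd10 the region ended 385 bp before the start, and its far end overlapped an H3K27ac region of 376 bp that began 1751 bp before the start. It was the 1 region of 18 at the gene ends that touched H3K27ac.

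Acetylation at gene ends was found at Fzd5, Fzd6 and Fzd7. Fzd7, a receptor known for a role in human pluripotent stem cells, was the gene with both sets: an H3.3 region of 479 bp reached from 465 bp before the start to 13 bp after it, between H3K27ac regions of 348 bp, which ended 859 bp before the start, and 702 bp, which began 2767 bp after it. A further acetylated region of 1697 bp lay at the far end of the gene. Its window held 7 H3K27ac regions with 10093 bp, all nearer to Fzd7 than to any other protein-coding gene, the widest of them 4811 bp, lying 30374 to 35184 bp upstream. Fzd5, needed for yolk sac and placental vessels in mouse, had H3K27ac regions of 4025, 3726 and 1123 bp at its ends, and the 4025 bp region also touched an end of Ccnyl1. An H3.3 region of 372 bp lay inside Fzd5, 4285 bp after the start, within an acetylated region.

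Fzd6, a receptor of planar cell polarity, had 258 bp of H3K27ac at a gene end and no H3.3. Fzd1, Fzd3 and Fzd9 had neither set at their ends. Fzd1 was the barest of the receptors, with 0 regions of either set in its window and the nearest ones 649099 bp (H3.3) and 449180 bp (H3K27ac) from the gene.

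Among the antagonists, H3.3 was at the ends of Sfrp1 (973 bp), Sfrp2 (282 bp) and Dkk2 (497 bp), 3 of 8 genes (37.5%, 8.52 to 75.5%). The interval includes the 16% of all protein-coding genes. The Sfrp2 region began 403 bp before the start and stopped short of it, and that of Dkk2 began 565 bp after the start. H3K27ac was at the ends of 1 of the 8 (12.5%, 0.316 to 52.7%, an interval that includes the 38.8% of all protein-coding genes). The gene was Sfrp4, an Sfrp of bone and phosphate metabolism, with regions of 664, 4439 and 726 bp (chr13:19622878-19623541, chr13:19628132-19632570 and chr13:19633517-19634242) and 0 H3.3 regions in its window.

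Sfrp5, Dkk1, Dkk3 and Dkk4 had neither set at their ends. The window of Dkk1, the LRP5/6 antagonist of head induction, held 0 regions of either set, and the nearest were 533532 bp (H3.3) and 323062 bp (H3K27ac) away. H3.3 was missing from 14 of the 37 windows (37.8%), against 58.7% of the windows of all protein-coding genes, of which 41.3% held H3.3. H3K27ac was missing from 10 of the 37 (27%), about the same share as the 26.8% over all protein-coding genes, of whose windows 73.2% held H3K27ac. Of the 37 windows 3 were empty of both, those of Wnt2, Fzd1 and Dkk1 (8.11%, against 24.1% of the windows of all protein-coding genes).

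Position relative to the start could be read for the 25 genes with a promoter sequence. An H3.3 region lay within 1 kb of 14 of their 28 start sites (50%), against 16.1% over all protein-coding genes, and an H3K27ac region within 1 kb of 2 (7.14%), against 35.6%. H3K27ac covered 0 of the 28 starts, against 18.3%. Of 13 genes with H3.3 within 1 kb of a start, the region covered the start at Wnt1, Wnt3, Wnt6, Wnt10b, Wnt11, Fzd4 and Fzd7, lay before it at Wnt9b, Fzd10 and Sfrp2, and lay after it at Wnt3a, Wnt7a and Dkk2. The median distance from the 28 starts was 2539 bp to the nearest H3.3 region and 26153.5 bp to the nearest H3K27ac region, against 103381 bp and 9419 bp over all start sites.

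**Figure D4:**
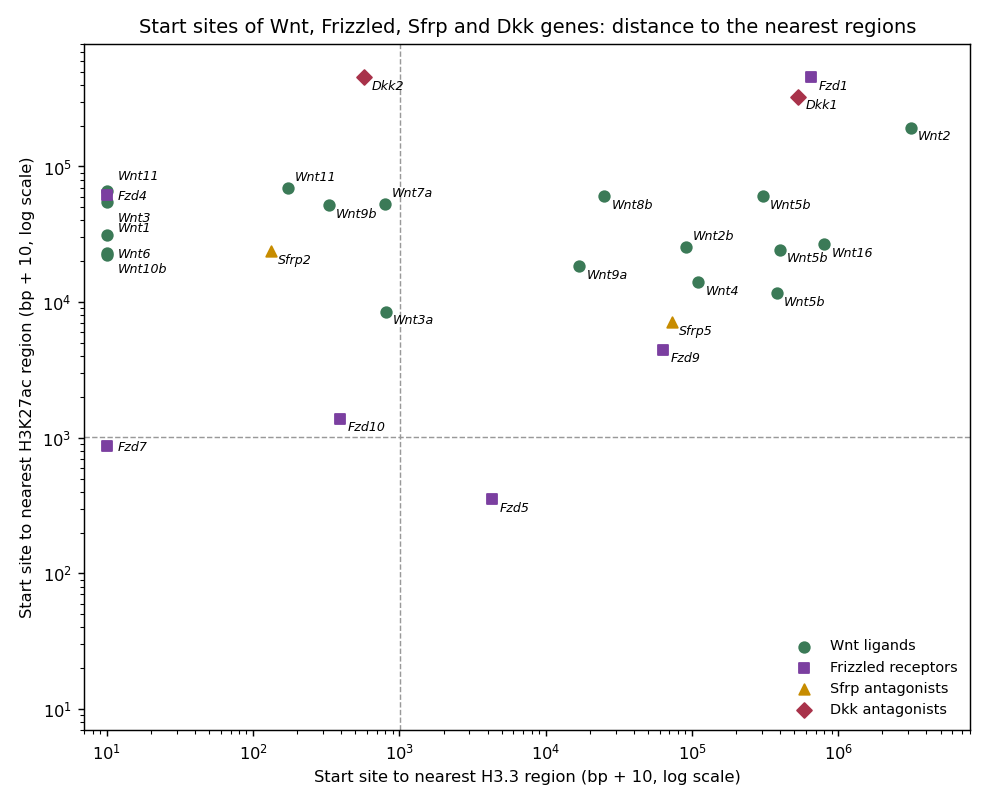
Distance in bp from each of 28 start sites to the nearest H3.3 (horizontal) and H3K27ac region (vertical), on log scales with 10 bp added so that a covered start lies at 10; dashed lines mark 1 kb, and genes with several starts appear once per start. Left of the vertical line lie 14 starts, 13 of them above the horizontal line, and Fzd5 and Fzd7 are the genes below it.

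By median, start sites with and without H3.3 both had more CpG than all start sites, 27.5 and 21.5 in 300 bases against 13. The 14 starts with H3.3 within 1 kb had a median GC content of 71% and a median observed-to-expected CpG ratio of 0.75, and the 14 without it 63.5% and 0.80. Over all protein-coding genes these medians were 62.3% and 0.78 with H3.3 and 55% and 0.46 without. Among the 28 starts the ratio ran from 0.50 to 1.18 with H3.3 and from 0.19 to 1.18 without it. Wnt9a, Fzd9 and Wnt4 had the most CpG of the 28, with 58, 53 and 51 in 300 bases, and no H3.3 at a gene end. The fewest were at Wnt16 (10), Dkk1 (9), Wnt8b (6) and 2 starts of Wnt5b (7 and 4), and these had no H3.3 at a gene end either. These are descriptions of few genes, with no test.

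Short motifs were counted in the same 300 bases, on both strands. GGGCGG, the letters bound by SP and KLF factors, was in 21 of the 28 promoters (75%), against 46.2% of all, and it contains CpG, in which these promoters are rich. The TCF/LEF letters ATCAAAG or TTCAAAG were in 3 (10.7%), against 7.57% of all: the upstream promoter of Wnt11, where ATCAAAG lies 51 to 45 bp before the start and inside the H3.3 region, 1 of 3 promoters of Wnt5b, and Dkk1. The octamer letters ATGCAAAT were in 1, that of Sfrp2 (3.57%, against 1.66%).

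Within 50 kb, most H3.3 regions lay nearest to these genes and most H3K27ac regions nearest to other genes. H3.3 regions numbered 10.3 per Mb of the 4.26 Mb of merged windows, against 3.11 per Mb over the merged windows of all protein-coding genes, and H3K27ac regions 34.7 per Mb, against 32.7. For 36 of the 44 H3.3 regions the nearest protein-coding gene was 1 of the 37, and for 34 of the 148 H3K27ac regions. How often this holds in the windows of other genes is not given here. The 8 H3.3 regions nearer to other genes touched H3K27ac in 4 cases, and the 36 nearer to these genes in 3 (8.33%, 1.75 to 22.5%).

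In the 5 windows with the most H3K27ac, it lay mostly nearest to neighbouring genes. Fzd9 had the most, 22899 bp in 18 regions, of which 17 were nearest to Baz1b, a chromatin remodelling gene. Wnt5b came next with 17554 bp in 14 regions, 12 of them nearest to the adiponectin receptor gene Adipor2. Wnt3a had 12946 bp, with 6 of 9 regions nearest to the GTPase gene Arf1, and Wnt4 11378 bp, with 9 of 10 nearest to the GTPase gene Cdc42. At Wnt1, the fifth, 11148 bp in 13 regions were all nearest to Prkag1, Arf3 or Kmt2d. The next windows differed: Fzd5 had 10535 bp in 6 regions, 3 of them nearest to Fzd5 with 8874 bp, and the 10093 bp at Fzd7 were all nearest to Fzd7. The 55 other protein-coding genes lying in the windows had H3K27ac at an end in 26 cases (47.3%, against 38.8% of all protein-coding genes) and H3.3 in 9 (16.4%, against 16%), so that their share with H3.3 was near that of all genes.

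The windows with the most H3.3 were those of Wnt10a (11616 bp), Wnt10b (11563 bp), Wnt1 (10806 bp), Wnt6 (10694 bp) and Wnt5a (4505 bp). The first 4 are shared in pairs, so these values come from 3 loci. Windows with more H3.3 than H3K27ac numbered 13 of 37, against 977 of 21887 over all protein-coding genes.

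H3.3 regions near these genes were mostly apart from acetylation. Of the 44 regions 7 touched an H3K27ac region (15.9%, 6.64 to 30.1%), against 2579 of 5430 over the assembled chromosomes (47.5%). The 18 regions at the ends of these genes lay a median of 26691 bp from the nearest H3K27ac region, against 92 bp for the 3141 H3.3 regions at the ends of protein-coding genes. Distances ran from 0 bp at Fzd10 and 394 bp at Fzd7 to 180820 bp at Fzd8 and 457463 bp at Dkk2.

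The rest of the pathway was read from 5 lists with 66 genes. Of the cytoplasmic and nuclear transducers, 18 of 27 had H3K27ac at an end (66.7%, 46.0 to 83.5%, against 38.8% of all protein-coding genes), widest at Ctnnb1, which encodes beta-catenin (9979 bp), the casein kinase genes Csnk1a1 (4369 bp) and Csnk1d (3878 bp) and the TCF gene Tcf7 (2024 bp). H3.3 was at 7 of them (25.9%, with an interval of 11.1 to 46.3% that includes the 16% of all protein-coding genes), 5 together with H3K27ac, and widest at the kinase gene Gsk3b (1235 bp). Amer1, Bcl9l, Btrc and Ctnnbip1 had neither. Genes for ligand export and co-receptors had H3K27ac at 6 of 10 (60%, 26.2 to 87.8%, an interval that includes 38.8%), including Ptk7 (1627 bp), Lrp5 (1490 bp), Porcn (1339 bp), which acylates the ligands, and Ryk (1017 bp), and H3.3 at 1 (10%, against 16%), Kremen2 (440 bp).

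In the R-spondin axis and among other secreted antagonists, 7 of 9 genes each had neither set (77.8%, 40.0 to 97.2%), an interval that includes the 55.8% of all protein-coding genes. Of 9 genes of the R-spondin axis, which tunes receptor levels, Lgr4 (2422 bp) and Znrf3 (510 bp) had H3K27ac and Lgr4 also H3.3 (260 bp), while those with neither included Lgr5, Lgr6, Rnf43 and Rspo1. Of 9 other secreted antagonists, the WNT deacylase gene Notum had H3K27ac (6654 bp), Frzb, the remaining Sfrp-type gene, had H3.3 (999 bp), and those with neither included Apcdd1, Cer1, Dkkl1 and Draxin.

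Among feedback and target genes, H3.3 was at 5 of 11 (45.5%, 16.7 to 76.6%, against 16% of all protein-coding genes), widest at Sp5 (5219 bp), Lef1 (3559 bp), Cdx2 (3323 bp) and T, the primitive streak factor (1788 bp). H3K27ac was at 1 (9.09%, 0.23 to 41.3%, an interval that includes the 38.8% of all protein-coding genes). That gene was the cyclin gene Ccnd1 (4934 bp), which also had H3.3 (222 bp). Axin2, Cdx1, Cdx4 and Fgf20 had neither at an end. Differences between these lists were not tested, and the lists were chosen with earlier results of these data known.

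**Figure D5:**
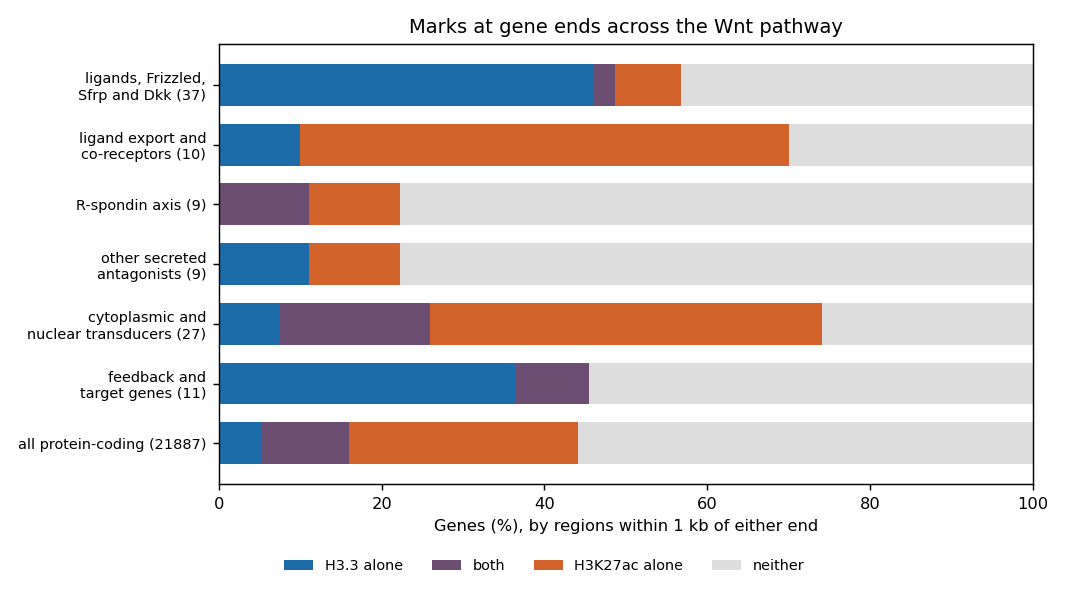
Share of genes (%) with H3.3 alone (blue), both sets (purple), H3K27ac alone (orange) or neither (grey) within 1 kb of either end, for the 37 genes, 5 other lists of WNT pathway genes (number of genes in brackets) and all protein-coding genes. H3.3 alone takes 45.9% of the 37 genes and 36.4% of the feedback and target genes, against 7.41% of the transducers and 5.31% of all protein-coding genes.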

How the data were processed

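Per the submitters' processing notes, Bowtie2, SAMtools, deepTools and MACS2 and the build mm10 were used, without versions or roles. Per the labels, a protein A fusion of micrococcal nuclease served for H3K27ac and a protein A/G fusion for H3.3, and digestion was stopped in different salt, so the sizes of the sets say nothing of relative abundance. The deposited values are the start and end of each consensus region. How regions were combined, and from which of the 28 libraries, is not given in the sources used here. Coordinates are given 1-based. On sequences other than the 21 assembled chromosomes lay 16 H3.3 and 13 H3K27ac regions, which were not used. Columns of other samples numbered 0.

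Genes and promoters came from RefSeq tables (GRCm38.p6), all 37 genes matching by symbol. A gene counted as marked if a region shared 1 bp or more with the 1 kb on either side of an annotated end. Counts are set beside the same counts over all protein-coding genes, and no test was run, since the lists hold no value per library. Shares have exact (Clopper-Pearson) 95% intervals. Nearest genes were taken from the centre of a region to the gene body. Counting was checked on simulated regions. Python 3.11.15, pandas 2.3.3 and scipy 1.17.1 were used.

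The 37 genes and the pathway lists were chosen with earlier results of these data known. All 37 may be named. From the other lists up to 4 genes were named per set, widest region at a gene end first, and up to 4 with neither, in alphabetical order. Promoters printed are those whose start a region covers. Markers named beyond this (Sox2, Nanog) and the neighbouring genes were named after their values were seen.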

Additional observations from a re-analysis of the deposited data

How the results depend on the processing

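No paired analysis was possible because the region sets hold no value per library. The counts at gene ends stayed within 1.5 times under the settings tried, apart from the 1 gene with both sets, which became 2 with a 2500 bp window, where the H3K27ac region before Fzd10 comes in. With windows of 500 and 2500 bp, 13 and 19 of the 37 genes had H3.3 (14.2 and 18.4% of all protein-coding genes) and 3 and 6 had H3K27ac (33.7 and 44.2%). With the wider 50% of each set the counts were 13 and 3 (8.43 and 27.8%). Over the 25 genes with a listed start, 13 had H3.3 within 1 kb of a start, the same number as by either end, and 2 had H3K27ac. Without regions that touch an end of another protein-coding gene, an alternative added after seeing the data, 15 genes had H3.3 and 4 H3K27ac. No matching share over all protein-coding genes is given for that setting.

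Counts of regions follow the window by construction. H3.3 regions numbered 29 in gene bodies alone, 68 with 100 kb flanks and 27 in the wider 50%, against 44. H3K27ac regions numbered 13 in gene bodies, 38 with 10 kb flanks, 301 with 100 kb flanks, 67 in the wider 50% and 34 where the nearest gene is one of these genes, against 148. The share of H3.3 regions touching H3K27ac was 3.45% in gene bodies, 5.56% with 10 kb flanks, 7.41% in the wider 50%, 8.33% where the nearest gene is one of these genes and 23.5% with 100 kb flanks, against 15.9%; it stayed at 15.9% when an overlap of 50% of the shorter region was asked for. No matching counts or shares over all protein-coding genes are given for these settings. Whether the change with the window is particular to these genes was not tested. With no depth or heights, a missing region does not show that a mark is absent.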

Other observations

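Ends of other genes lay at several of the H3.3 regions. The Fzd10 region also touched an end of the antisense gene Fzd10os, the Wnt11 region an end of Gm33770, the Wnt7a region an end of Gm30437, and the Wnt7b regions of 703 and 545 bp ends of AU022754, none of them protein-coding. Beyond Wnt1 on chromosome 15, Ddn, which encodes the neuronal protein dendrin, had H3.3 regions of 941 and 1925 bp at its ends and no H3K27ac. These genes were named after their values were seen.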
